A study of Homo sapiens with 66 samples.

Results

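Translation initiation and elongation factors, the cytosolic proteins that bring ribosomes to the start codon of an mRNA and move them along it, were followed at the mRNA level in 2 human multiple myeloma (MM) cell lines treated with inhibitors of prolyl-tRNA synthetase (ProRS). Members were all protein-coding genes whose symbols start with EIF or EEF, without the 4 eIF2α kinases EIF2AK1 to EIF2AK4, EIF2S1 and EIF4EBP1, that had a mean of at least 5 CPM (counts scaled to a common library total) over all libraries. This rule kept 57 of the 20167 genes in the table and left 6 genes of the same name families below the minimum. EEF1A2 lay just inside it with a mean of 5.03 CPM, and EIF5AL1 and EEF1AKMT1 lay just outside it with 3.81 and 3.71 CPM. The rule used the mean level over all groups and no difference between them.

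RNA-seq counts were available for 66 libraries in 22 groups of 3 replicates. AMO1 cells, a plasma cell line taken here in its parental form, were treated for 6 h or 24 h with DMSO as control, with 1 µM NCP26, 1 µM HFG (halofuginone), 1 µM halofuginol, 1 µM NCP22 or with CFZ (carfilzomib, a proteasome inhibitor; the labels give no dose for it, and a legend of the study gives 10 nM). L363-CFZr cells, a subline of the MM line L363 that is resistant to CFZ, received the same treatments except CFZ. HFG and its analogue halofuginol derive from febrifugine, while NCP26, a pyrazinamide-based compound, was developed from NCP22. For each group, 3 separate samples were labelled, and no label says whether they came from separate cultures, so p-values measure the spread between these samples. Cells of the 6 h groups were stored frozen before RNA extraction and those of the 24 h groups on ice, so time and storage cannot be told apart.

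In translation initiation, eIF2 with GTP carries the initiator tRNA to the small ribosomal subunit, eIF2B recharges eIF2 with GTP, eIF3 holds the subunit in place, and the eIF4 proteins bind the cap of the mRNA and unwind its leader. EIF1, EIF5 and EIF5B act when the start codon is found and the subunits join. eEF1A then delivers each aminoacyl-tRNA, eEF1B recharges eEF1A, eIF5A eases the ribosome past difficult peptide bonds such as those of prolines, and eEF2 moves the ribosome on by a codon. Uncharged tRNA activates the kinase GCN2, which phosphorylates eIF2α and slows initiation in general. Plasma cells make large amounts of secreted protein and therefore rely on this machinery.

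The libraries held 1666325 to 5761682 counts in AMO1 cells (median 3009496) and 2487872 to 6596543 in L363-CFZr cells (median 3562784). All 8 plasma cell markers examined were at 5 CPM or more in every library of both lines, whereas 4 T cell markers summed to at most 4.40 CPM, 4 myeloid markers to at most 3.64 CPM and 4 epithelial or stromal markers to at most 10.4 CPM. A pair of libraries stood furthest apart from their replicates. Log2 CPM of L363-CFZr DMSO 24 h replicate 2 correlated at 0.975 and 0.976 with the other replicates, and AMO1 CFZ 24 h replicate 2 at 0.979 and 0.975. EEF1A1 was at 16008, 9152 and 16546 CPM in the first of these groups and at 14129, 9069.9 and 14576 CPM in the other, with replicate 2 lowest in each. AMO1 NCP26 6 h replicate 1 differed less, at 0.986 with both other replicates, which correlated at 0.992. It held counts for 15581 genes, against 13577 and 13636. For EIF2S2, EIF1, EIF4G1, EIF3B and EEF2 below it is the NCP26 library furthest from DMSO. L363-CFZr NCP26 6 h replicate 2 correlated at 0.993 and 0.992, and its other replicates at 0.996. The sample numbers in the column names formed 3 sets of 22 libraries, and AMO1 libraries treated for 24 h with NCP26, HFG, halofuginol or NCP22 fell into another set than their DMSO libraries, as did L363-CFZr libraries treated with HFG or halofuginol for 6 h. So did replicates 2 and 3 of AMO1 CFZ 24 h and replicate 3 of L363-CFZr NCP22 6 h. What the sets stand for was not given in the sources used here. Levels below are CPM scaled by TMM over all libraries, a difference was called where the adjusted p of edgeR's quasi-likelihood test was under 0.05, and fold changes are on the log2 scale. In these bulk samples a lower level cannot tell less mRNA per cell from fewer cells of a kind.

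The members spanned 4 orders of magnitude in untreated cells. Per kilobase of transcript in AMO1 cells with DMSO at 6 h, EEF1A1, which encodes the main tRNA-delivering factor, stood first with 5187 CPM per kilobase, followed by EEF1G with 2613, EEF2 with 2083 and EEF1B2 with 1625. The next were EIF5A with 611.1 CPM per kilobase and EIF4A1, the helicase of the cap complex, with 574.8. The lowest were EEF2K with 3.76, EIF4E3 with 2.69, EIF5A2 with 2.52 and EEF1A2 with 0.325 CPM per kilobase. In L363-CFZr cells EEF1A1 (4973), EEF2 (2546) and EEF1G (2100) were again the highest, with EEF2 and EEF1G in the other order.

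The members together made up 4.18% of all counts in AMO1 cells with DMSO at 6 h, or 41786 ± 366 CPM without TMM scaling (SD, n = 3). This plain sum was 37780.5 ± 1301 CPM with NCP26, 36328 ± 393 with HFG and 44176 ± 468 with CFZ, and none of these 3 groups overlapped with DMSO. TMM scaling widened the differences, since the scaling factors were 0.811 to 0.838 with CFZ and 0.940 to 0.969 with DMSO: the scaled sums were 43842 ± 1031 CPM with DMSO, 35155 ± 252 with NCP26, 32912 ± 428 with HFG and 53734 ± 1459 with CFZ. At 24 h the plain sum was 39267 ± 353 CPM with DMSO, 33391 CPM with NCP26 (33197 to 33697.1) and 39219 ± 1012 CPM with HFG, and HFG overlapped with DMSO on this scale.

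In L363-CFZr cells at 6 h the plain sum was 40823 ± 175 CPM with DMSO, 41623 ± 1273 with NCP26 and 39821 ± 486 with HFG. At 24 h it was 36237 ± 5388 CPM with DMSO, 42027 ± 1231 with NCP26 and 44894 ± 223 with HFG, and every NCP26 and HFG library lay above DMSO, which ran from 30019 to 39519 CPM. No test was made of these sums, since 3 against 3 libraries cannot give an exact two-sided permutation p below 0.1.

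In AMO1 cells at 6 h, NCP26 changed 25 of 56 tested members, 6 higher and 19 lower, beside 37.3% of all tested genes. HFG changed 35 of 56, 7 higher and 28 lower, beside 54.3% of all genes. Of all genes, 18.1% were called higher and 19.2% lower with NCP26, and 27.7% and 26.6% with HFG, against 33.9% and 50.0% of the tested members called lower. Median log2 changes of members were -0.20 and -0.25, beside -0.01 and 0.01 over all tested genes. Here and below, members and all genes were not matched for level, and small changes are called more readily at high counts. The comparisons of both compounds use the same DMSO libraries.

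EIF2S2, the β subunit of eIF2, rose with both compounds. It was at 260.2, 265 and 258 CPM with DMSO, 457, 407 and 384 with NCP26 and 389.8, 349 and 349 with HFG. All treated libraries lay above all DMSO libraries, and the log2 fold changes were 0.68 (SE 0.10, adjusted p = 3.2e-04) with NCP26 and 0.51 (SE 0.071, adjusted p = 2.2e-05) with HFG. EIF1, which keeps the scanning ribosome from starting at wrong codons, was at 624, 659.8 and 631 CPM with DMSO, 1078, 881 and 941 with NCP26 and 874, 892 and 862 with HFG. It too was higher in every treated library, by 0.61 (adjusted p = 8.3e-04) and 0.49 (adjusted p = 2.8e-06). Its close relative EIF1B rose by 0.77 and 0.63. EIF5, the partner of eIF2 that triggers GTP hydrolysis at the start codon, rose by 0.28 (adjusted p = 0.0428) and 0.39 (adjusted p = 0.00159), and both calls were lost when a trend with GC content was removed (0.08, adjusted p = 0.481, and 0.15, adjusted p = 0.0645).

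The γ subunit of eIF2 moved the other way. EIF2S3 was at 284, 317 and 317 CPM with DMSO, 229, 249 and 239.7 with NCP26 and 232, 219 and 219 with HFG. Its libraries did not overlap between DMSO and either treatment, and it fell by 0.34 and 0.42 on the log2 scale (adjusted p = 0.0148 and 1.9e-04). Of its 31-mers (stretches of 31 bases), 31.6% also occur in other genes of the table, so its counts could in part be shared with them. The 5 subunits of eIF2B did not pass the test with NCP26, and EIF2B4, its δ subunit, alone did with HFG (0.27, adjusted p = 0.0304).

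Within the group of EIF4 genes, 7 of 13 tested members were lower with NCP26 and 8 with HFG, and none was higher. Besides cap-binding factors this group holds other genes, such as EIF4EBP2, EIF4ENIF1 and EIF4A3, so the count is not one of cap-binding proteins alone. EIF4G1, the scaffold that ties the cap complex to eIF3, was at 488, 468 and 469.8 CPM with DMSO, 181, 251 and 299.7 with NCP26 and 242, 285 and 281 with HFG. Every treated library was below every DMSO library, and it fell by 0.95 (SE 0.15, adjusted p = 3.9e-04) and 0.78 (SE 0.073, adjusted p = 3.7e-07) on the log2 scale. EIF4H, a cofactor of the eIF4A helicase, was at 539, 553 and 520.1 CPM with DMSO, 285, 296 and 309 with NCP26 and 299, 304 and 299.9 with HFG. It fell 1.8-fold with NCP26 (adjusted p = 4.2e-05) and 1.74-fold with HFG (adjusted p = 5.9e-08), with no overlap. EIF4A1 went from 1029, 1044 and 958 CPM with DMSO to 701, 654 and 662 with NCP26 and 619, 628 and 586 with HFG, lower in all treated libraries (log2 fold changes -0.58 and -0.69). EIF4A2, its close copy, changed by -0.31 with NCP26 (adjusted p = 0.0224) and by -0.14 with HFG (adjusted p = 0.0841), where it did not pass the test. EIF4E, which contacts the cap itself, did not pass it either, at -0.11 and -0.05.

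Of the 14 genes of eIF3, EIF3J was higher with both compounds, 3 were lower with NCP26 and 8 with HFG. EIF3B, a core subunit, had the largest change of all members with NCP26. It was at 574, 549 and 503 CPM with DMSO, 201, 228 and 262 with NCP26 and 260.3, 264 and 268 with HFG. The treated libraries lay far below those with DMSO and did not overlap with them. The log2 fold change was -1.22 (95% interval -1.47 to -0.97, adjusted p = 1.1e-05) with NCP26 and -1.0 (95% interval -1.14 to -0.85, adjusted p = 1.3e-08) with HFG.

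EIF5A was the member with the largest fall under HFG. Its libraries were at 786, 811 and 720.1 CPM with DMSO, 477, 445 and 474 with NCP26 and 347, 355 and 343 with HFG, in 3 groups that did not overlap. The log2 fold change was -1.11 (SE 0.064, adjusted p = 1.9e-09) with HFG and -0.72 (SE 0.099, adjusted p = 1.6e-04) with NCP26. Its rarer copy EIF5A2 went up at the same time, from 11.9, 12.2 and 17.7 CPM with DMSO to 20.3, 26.5 and 21.1 with NCP26 and 21.1, 19.2 and 21.6 with HFG, again without overlap (0.72, adjusted p = 0.0122, and 0.61, adjusted p = 0.00847). Since 28.6% of the 31-mers of EIF5A also occur in other genes of the table, its counts could in part be shared with them.

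Among the elongation factors, 4 of 7 tested members fell with NCP26 and 5 with HFG, and none rose. EEF1A1 was at 18200.3, 18565 and 17888 CPM with DMSO, 14904, 14406 and 13986 with NCP26 and 13572, 13091 and 12911 with HFG. EEF2 was at 6957, 6624 and 6149 CPM with DMSO, 4352, 5120.4 and 5562 with NCP26 and 4616, 5374 and 5054 with HFG. Both were below DMSO in all treated libraries, EEF1A1 by -0.33 and -0.43 and EEF2 by -0.38 and -0.35 on the log2 scale. The call of EEF2 with NCP26 was lost when the GC trend was removed (-0.13, adjusted p = 0.319). EEF2K, the kinase that inactivates eEF2, went from 26.4, 31.5 and 25.5 CPM to 18, 18.8 and 18.8 with NCP26 and 16.1, 14.9 and 14.9 with HFG, with no overlap (-0.57, adjusted p = 0.00992, and -0.83, adjusted p = 1.8e-04). EEF1AKMT3, a methyltransferase of eEF1A, was at 13.5, 17.8 and 12 CPM with DMSO and 8.43, 8 and 5.47 with HFG, lower in every treated library (-1.02, SE 0.23, adjusted p = 0.00164).

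**Figure D1:**
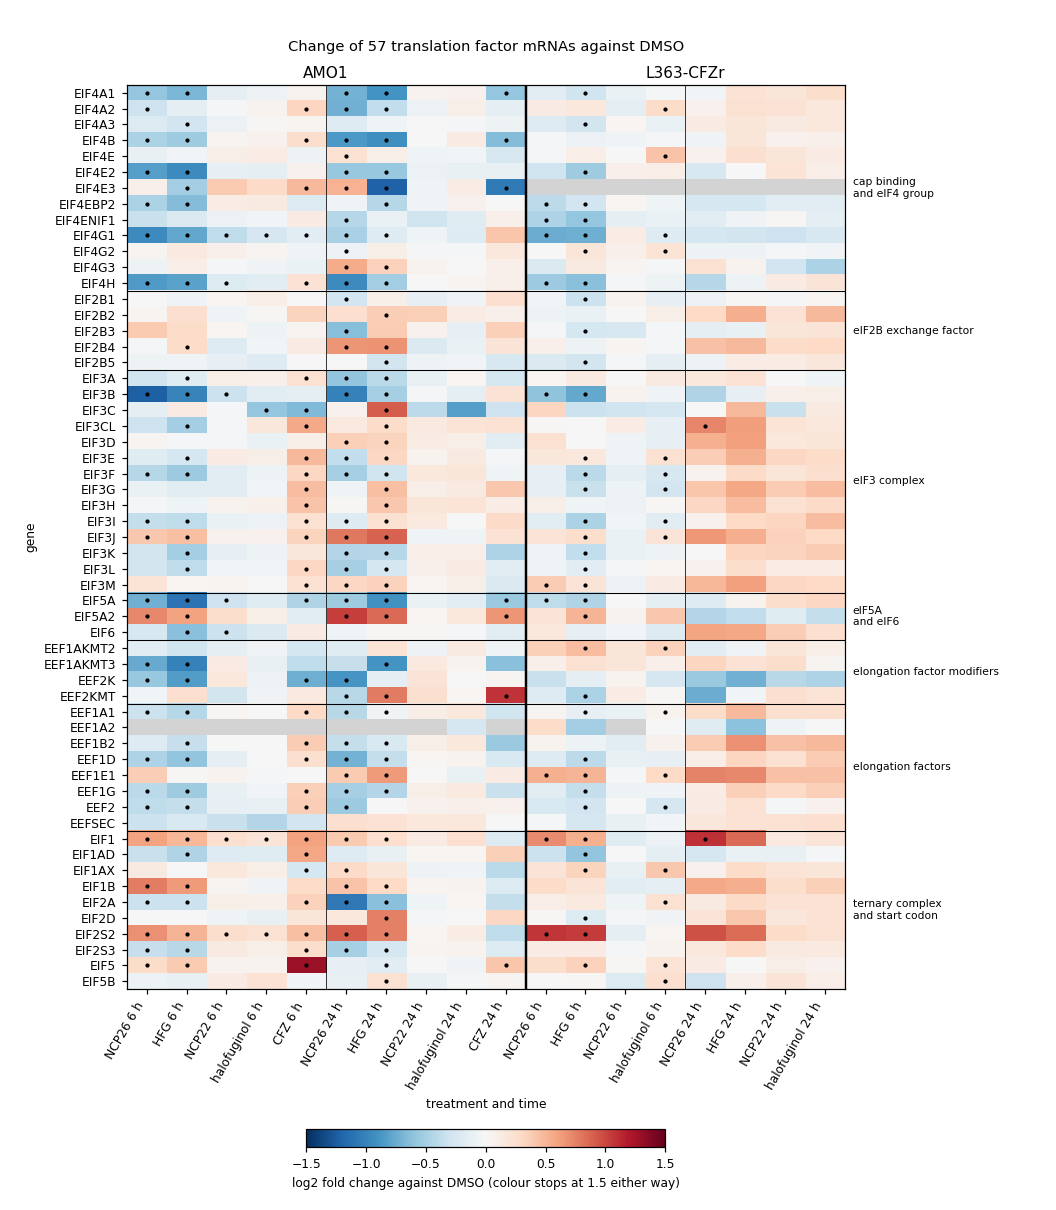
Log2 fold change against DMSO of the same line and time (colour) for all 57 members (rows, grouped by role) in 18 comparisons (columns); a dot marks an adjusted p under 0.05 and grey a member not tested. NCP26 and HFG columns in AMO1 carry 25 to 43 dots and NCP22 and halofuginol columns in AMO1 at most 7. In L363-CFZr at 6 h NCP26 carries 10, HFG 35 and halofuginol 17, and at 24 h NCP26 carries 2 and HFG 0. The shares of all genes called are given in the text.

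At 24 h in AMO1 cells, NCP26 changed 40 of 56 members, 13 higher and 27 lower, beside 60.7% of all genes (29.8% higher and 30.9% lower). HFG changed 43 of 56, 20 higher and 23 lower, beside 59.0% of all genes (28.5% higher and 30.5% lower). The members' median was -0.19 with NCP26 and 0.01 with HFG, and that of all genes 0.01 and 0.00. Of the 25 members called with NCP26 at 6 h, 22 were called in the same direction at 24 h (88.0% of the first list and 55.0% of the second) and none in the other. Of the 35 called with HFG at 6 h, 26 were called in the same direction at 24 h (74.3% and 60.5%) and 4 in the opposite direction. The agreement of all genes between the times is not given, so these shares describe the members only.

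EIF2S2 remained high, at 255, 240.4 and 258 CPM with DMSO, 471, 482 and 454 with NCP26 and 452, 403 and 416 with HFG. Its log2 fold change was 0.90 (SE 0.047) and 0.75 (SE 0.057), with no overlap. EIF1 was at 891, 919.7 and 884 CPM with DMSO, 1204, 1179.7 and 1151 with NCP26 and 1038, 1069 and 1097 with HFG. It was again above DMSO in all treated libraries, by 0.39 and 0.25, although its DMSO level was higher than at 6 h. EIF2A, an initiation factor that can bring the initiator tRNA without eIF2, had the largest change with NCP26, from 188, 176 and 181 CPM with DMSO to 93.4, 88.2 and 77.3 with NCP26 and 111, 116 and 124 with HFG. All treated libraries were lower (-1.07, adjusted p = 3.2e-14, and -0.63, adjusted p = 1.9e-07). EIF2S3 fell by 0.50 and 0.27.

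EIF4B, the activator of the eIF4A helicase, had the lowest p of the fallen members with HFG. It was at 1833, 1794 and 1731 CPM with DMSO, 1005, 1012 and 929.8 with NCP26 and 945, 892 and 989 with HFG. All treated libraries were below DMSO, 1.82-fold with NCP26 and 1.9-fold with HFG. EIF4E was at 84.3, 88.7 and 99.7 CPM with DMSO and 112, 105 and 106 with NCP26 (0.23, adjusted p = 0.00846), and this call was lost without the GC trend (0.01, adjusted p = 0.948). EIF4G3, a homologue of EIF4G1, was at 76.6, 80.7 and 82.1 CPM with DMSO, 132, 113 and 109 with NCP26 and 105, 100.0 and 102 with HFG. It rose by 0.55 and 0.35 while EIF4G1 fell by 0.48 and 0.20. EIF4A2 fell together with EIF4A1, by 0.72 and 0.37 for the former and 0.71 and 0.90 for the latter.

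The genes of eIF3 subunits split. With HFG 9 of 14 genes were higher and 5 lower, and with NCP26 3 were higher and 7 lower. The 9 include both EIF3C and EIF3CL, near-identical copies whose counts are uncertain, as set out below. No gene was called in opposite directions by the 2 compounds except EIF3E and EIF3I. EIF3B was at 378, 365 and 375 CPM with DMSO, 188, 179.7 and 188 with NCP26 and 274, 263 and 258 with HFG. EIF3A, the largest subunit, was at 846, 846 and 780.2 CPM with DMSO, 551, 562 and 532 with NCP26 and 630.0, 617 and 617 with HFG. Both subunits were lower in all treated libraries, EIF3B by -1.01 and -0.49 and EIF3A by -0.59 and -0.41. EIF3J, which binds loosely at the mRNA entry channel, was at 111, 109.7 and 123 CPM with DMSO, 187, 208 and 202 with NCP26 and 211, 216 and 212 with HFG, and rose by 0.79 and 0.89 without overlap. EIF3E, on the other hand, was at 567, 586 and 611 CPM with DMSO, below it with NCP26 at 471, 440.1 and 459.7 and above it with HFG at 690.2, 719.5 and 778.

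EEF1A1 and EEF2 separated the compounds at 24 h. EEF1A1 was at 15265, 15841 and 15744 CPM with DMSO, 11942, 11560.4 and 11753 with NCP26 and 14458, 15006 and 15609 with HFG. EEF2 was at 5874, 6023 and 6058 CPM with DMSO, 4076, 4123 and 4151 with NCP26 and 5884, 5999 and 6132 with HFG. NCP26 libraries were lowest for both genes (-0.41 and -0.54), while HFG libraries overlapped with DMSO (-0.06, adjusted p = 0.0384, and 0.00, adjusted p = 0.885). The small HFG change of EEF1A1 was not called with the size factors of DESeq2 (-0.05, adjusted p = 0.0741), and it turned to 0.19 (adjusted p = 0.395) with the set of sample numbers as a term. EEF2K was at 22.3, 24.5 and 26.8 CPM with DMSO, 12.5, 16 and 12.1 with NCP26 and 30.3, 23.6 and 16.9 with HFG, and only the NCP26 libraries were all below DMSO (-0.89, adjusted p = 1.6e-05). EEF1E1, also known as AIMP3, a scaffold protein of the multi-tRNA synthetase complex, was at 19.8, 25 and 25.2 CPM with DMSO, 35.9, 32.9 and 25.2 with NCP26 and 40.5, 31.8 and 39.4 with HFG. It rose by 0.39 (adjusted p = 0.0162) and 0.64 (adjusted p = 5.4e-04). EIF2B5, the catalytic subunit of eIF2B, was at 92.7, 75.3 and 85.5 CPM with DMSO and 66.9, 65.3 and 74.5 with HFG (-0.28, adjusted p = 0.0152).

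EIF4E3, a cap-binding relative of eIF4E, behaved differently again, at 31.5, 28.1 and 25 CPM with DMSO, 36.9, 41.7 and 40.6 with NCP26 and 11.2, 10.7 and 13.6 with HFG. The 3 groups did not overlap, and it rose by 0.52 (adjusted p = 3.2e-04) with NCP26 and fell by 1.21 (adjusted p = 5.7e-06) with HFG. EIF5A fell by 0.53 and 0.91 and EIF5A2, at 10.3, 11.1 and 10.6 CPM with DMSO, 22.2, 22.8 and 20.9 with NCP26 and 19.1, 19.4 and 19.5 with HFG, rose by 1.03 and 0.85. Because the treated AMO1 libraries at 24 h lie in another set of sample numbers than DMSO, a fit of all AMO1 groups with the set as a term was run, and it called 22 members with NCP26 and 21 with HFG, beside 25.2% and 31.3% of all genes in that fit. In that fit EIF2S2 (1.32 and 1.18), EIF3B (-1.08 and -0.55) and EIF4B (-0.76 and -0.82) were called for both compounds, whereas EIF5A2 was called for neither. The set term there rests on the 3 AMO1 CFZ 24 h libraries, which include the one that stood apart.

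CFZ gave a different picture at 6 h: 30 of 56 members were called, 25 higher and 5 lower, beside 26.9% of all genes. Of all genes, 14.1% were called higher and 12.8% lower, against 44.6% of the tested members called higher, and the median change was 0.17 for members and -0.01 for all genes. EIF5 led with 444, 435 and 427 CPM with CFZ against 161, 178 and 189.8 with DMSO. That is 2.46-fold (log2 1.30, SE 0.071, adjusted p = 4.7e-12), and no library of any other AMO1 group reached it. The elongation factors rose where NCP26 and HFG had lowered them: EEF1A1 to 22414, 22004 and 23300.4 CPM (0.30) and EEF2 to 8593, 8268 and 8728 CPM (0.37), above every DMSO library given before. As a plain share of the counts, EEF1A1 was at 17364 ± 69.6 CPM with DMSO and 18558 ± 297 CPM with CFZ (SD, n = 3). In eIF3, 10 of 14 genes were higher, among them EIF3E (0.49), EIF3G (0.46) and EIF3H (0.43). Both EIF1 (0.61) and EIF2S2 (0.45) rose too. EEF2K was at 15.4, 19.6 and 15.3 CPM and EIF5A at 577, 554 and 568 CPM, each below all DMSO libraries (-0.73, adjusted p = 0.00175, and -0.45, adjusted p = 6.0e-06).

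At 24 h 7 members were called with CFZ, 3 higher and 4 lower, beside 27% of all genes (13.1% higher and 14% lower). CFZ replicates 2 and 3 lie in another set of sample numbers than DMSO, so treatment and set are partly mixed here. EEF2KMT, a methyltransferase of eEF2, was at 14.7, 15.3 and 16.6 CPM with DMSO and 33.6, 29.7 and 34.6 with CFZ, higher in every treated library (1.08, SE 0.14, adjusted p = 0.00103). Of its 31-mers, 46.8% are shared with other genes in the table, so this level is uncertain. EIF4E3 was at 14.3, 10 and 15.1 CPM with CFZ, lower than any DMSO library (-1.06, adjusted p = 0.00422). EIF5A2, at 15, 18.4 and 16.7 CPM, was higher than any DMSO library (0.66, adjusted p = 0.0246). Without replicate 2, the library that stood apart, 32 members were called, 16 in each direction, beside 48.2% of all genes, with EIF4E3 (-0.90) and EEF2KMT (1.12) still among them.

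In L363-CFZr cells at 6 h, HFG changed 35 of 56 members, 11 higher and 24 lower, beside 54.5% of all genes (26.9% higher and 27.5% lower). NCP26 changed 10, 4 higher and 6 lower, beside 18.8% of all genes (9.81% higher and 8.99% lower). EIF2S2 was at 199, 203 and 206 CPM with DMSO, 385, 496 and 381 with NCP26 and 422, 404 and 405 with HFG. It was higher in all treated libraries (log2 1.07, adjusted p = 2.1e-04, and 1.05, adjusted p = 4.9e-13). EIF1 was at 611, 596 and 692 CPM with DMSO, 979, 1212 and 867 with NCP26 and 904, 874 and 903 with HFG, with no overlap (0.71 and 0.53). EIF3B was at 584, 571 and 593 CPM with DMSO, 374, 399 and 360.2 with NCP26 and 323, 349.8 and 332 with HFG. EIF4G1 was at 535, 518 and 524 CPM with DMSO, 339, 254 and 332 with NCP26 and 301, 309 and 318 with HFG. Both were lower in all 6 treated libraries, EIF3B by -0.60 and -0.77 and EIF4G1 by -0.75 and -0.73. EEF1E1 rose by 0.54 and 0.51, but neither call held when the GC trend was removed (0.25, adjusted p = 0.295, and 0.02, adjusted p = 0.902).

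HFG libraries of L363-CFZr at 6 h also lie in another set of sample numbers than DMSO, and with the set as a term 10 members were called, 3 higher and 7 lower, beside 19.6% of all genes. EIF2S2 (1.09), EIF3B (-0.79), EIF4G1 (-0.95) and EIF4H (-0.55) were among them, whereas EIF1 (0.51, adjusted p = 0.0800) was not. The set term there rests on the L363-CFZr NCP22 6 h libraries, with replicates 1 and 2 in the set of DMSO and replicate 3 in that of HFG. EEF2 fell by 0.28 without this term, and its direction turned to 0.047 when the GC trend was removed. For NCP26, leaving out replicate 2 raised the count from 10 to 22, beside 36.7% of all genes.

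At 24 h in L363-CFZr cells, NCP26 raised 2 members and lowered none, beside 7.09% of all genes (2.71% higher and 4.38% lower). EIF1 was at 645, 469.6 and 629 CPM with DMSO, 1200.0, 1242 and 1254 with NCP26 and 1032, 1046 and 1059 with HFG. All treated libraries were higher, and the change passed the test with NCP26 (1.09, SE 0.17, adjusted p = 0.0105) but not with HFG (0.85, adjusted p = 0.053). Without DMSO replicate 2, which stood apart, it was called with both (0.96, adjusted p = 2.3e-07, and 0.72, adjusted p = 1.5e-11). EIF3CL was the other called member (0.73, adjusted p = 0.031, and 0.62 without that replicate). With HFG 0 members were called, beside 1.17% of all genes (0.592% higher and 0.573% lower), although 12 had an unadjusted p under 0.05 and DESeq2 called 3. These comparisons rest on DMSO replicate 2: without it 18 members were called with NCP26, 10 higher and 8 lower, beside 28.6% of all genes, and 27 with HFG, 25 higher and 2 lower, beside 19.5%. EIF2S2 was then higher by 0.71 with NCP26 and 0.60 with HFG, and its libraries were at 204, 108 and 209 CPM with DMSO, 332, 341 and 333 with NCP26 and 307, 318 and 309 with HFG. With HFG, EEF1A1 (0.26) and EEF2 (0.23) were also higher without that replicate.

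Over the 8 comparisons of NCP26 or HFG with DMSO, EIF1 was called higher in 7 and EIF2S2 in 6, and EIF3J and EIF5A2 in 5. EIF3B, EIF4G1, EIF4H and EIF5A were called lower in 6. In all, 9 members were called in both directions in different comparisons and 2 in none. Pairs of these comparisons share DMSO libraries, so they are not independent of each other. No share of all genes called as often is given beside these counts, so they are not shown to be particular to the members.

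Halofuginol and NCP22 were given at the same 1 µM dose. In AMO1 cells at 6 h NCP22 changed 7 of 56 members, 2 higher and 5 lower, beside 13.5% of all genes (7.42% higher and 6.08% lower). Halofuginol changed 4, 2 in each direction, beside 3.62% (2.6% higher and 1.02% lower). EIF2S2 (0.27 and 0.23) and EIF1 (0.24 and 0.19) were higher with each, and EIF4G1 (-0.38 and -0.25) was lower. Both comparisons use the same DMSO libraries as those of NCP26, HFG and CFZ at 6 h, so these directions are not independent of each other. At 24 h 0 members were called with either, beside 0.0% of all genes with NCP22 and 0.183% with halofuginol (0.0731% higher and 0.11% lower); 4 and 14 members had an unadjusted p under 0.05, and DESeq2 called 0 and 4. In L363-CFZr cells 0 members were called with NCP22 at both times, beside 0.0% of all genes, with 4 at 6 h and 0 at 24 h at an unadjusted p under 0.05 and 0 by DESeq2. With halofuginol 17 members were called at 6 h, 12 higher and 5 lower, beside 25.8% of all genes (13.6% higher and 12.2% lower), but 2 once the GC trend was removed, beside 0.97%, and 0 with the set of sample numbers as a term, beside 0.73%. At 24 h 0 were called, beside 0.0% of all genes, with 1 at an unadjusted p under 0.05 and 0 by DESeq2. The set term at 6 h rests on the NCP22 6 h libraries of this line, as for HFG.

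Differences between compounds were tested directly in 12 pairs, each adjusted over all tested genes. NCP26 differed from NCP22 in 21 of 56 members at 6 h and 37 at 24 h in AMO1 cells, beside 24.7% and 52.0% of all genes, and in 10 and 15 in L363-CFZr cells, beside 20.4% and 34.1%. HFG differed from halofuginol in 40 members at both times in AMO1 cells, beside 51.7% and 56.6% of all genes, and in 30 and 17 in L363-CFZr cells, beside 47.3% and 21.9%. In AMO1 cells at 24 h and for HFG in L363-CFZr at 6 h, each of these pairs lay within a set of sample numbers. At 24 h in AMO1, NCP22 libraries held EEF2K at 34.4, 27.1 and 23.7 CPM and EIF5A2 at 13.4, 9.12 and 10.8 CPM, and NCP26 libraries lay below the former and above the latter without overlap (-1.06, SE 0.18, and 1.03, SE 0.19). EIF5A was at 645, 699 and 689.8 CPM with halofuginol at 6 h, far above all HFG libraries (-0.94, SE 0.049, adjusted p = 8.2e-11). At the same time EIF3B was at 441, 432 and 413 CPM with NCP22, above all NCP26 libraries (-0.87, SE 0.10, adjusted p = 1.4e-04). In L363-CFZr cells at 6 h EIF2S2 was at 191, 181 and 179 CPM with NCP22 and 202, 210.4 and 211 with halofuginol. NCP26 exceeded NCP22 by 1.20 and HFG exceeded halofuginol by 1.02. The same line at 24 h had EIF1 at 717, 594 and 621 CPM with NCP22 and 626, 663 and 709 with halofuginol, below NCP26 by 0.94 and below HFG by 0.65 on the log2 scale.

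NCP26 and HFG differ in scaffold. In AMO1 cells at 6 h 0 of 56 members were called, beside 0.26% of all genes, with 6 at an unadjusted p under 0.05 and 1 by DESeq2. EIF5A, whose libraries did not overlap between the compounds, differed by 0.41 (adjusted p = 0.0759), and every 95% interval lay within 2-fold, from -0.63 (EIF3C) to 0.92 (EIF4E3). In L363-CFZr cells at 6 h 0 of 56 were called, beside 0.0% of all genes, with 8 at an unadjusted p under 0.05 and 0 by DESeq2, and 55 of 56 intervals lay within 2-fold. All NCP26 libraries there lie in another set of sample numbers than the HFG libraries, so compound and set cannot be told apart. At 24 h the compounds differed. In AMO1 cells 33 of 56 members were called, 7 higher and 26 lower with NCP26, beside 44.9% of all genes (22.6% higher and 22.4% lower). EIF4E3 was 3.27-fold higher with NCP26 (1.71, 95% interval 1.39 to 2.03, adjusted p = 5.1e-08). EEF2KMT was at 10.6, 13 and 11.8 CPM with NCP26 and 28.7, 24.4 and 27.8 with HFG (-1.20, 95% interval -1.55 to -0.84), again with no overlap. Of the 14 eIF3 genes, 9 were lower with NCP26 and none higher, and of the 7 elongation factors tested 5 were lower and none higher, EEF1A1 by 0.37 and EEF2 by 0.56. In L363-CFZr cells 16 of 56 were called, 1 higher and 15 lower with NCP26, beside 12.9% of all genes (5.52% higher and 7.43% lower). EIF1 was the higher one (0.25), EEF2KMT (-0.71) and EIF5B (-0.39) had the largest falls, and without replicate 3 of HFG the count was 5, beside 5.56% of all genes.

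**Figure D2:**
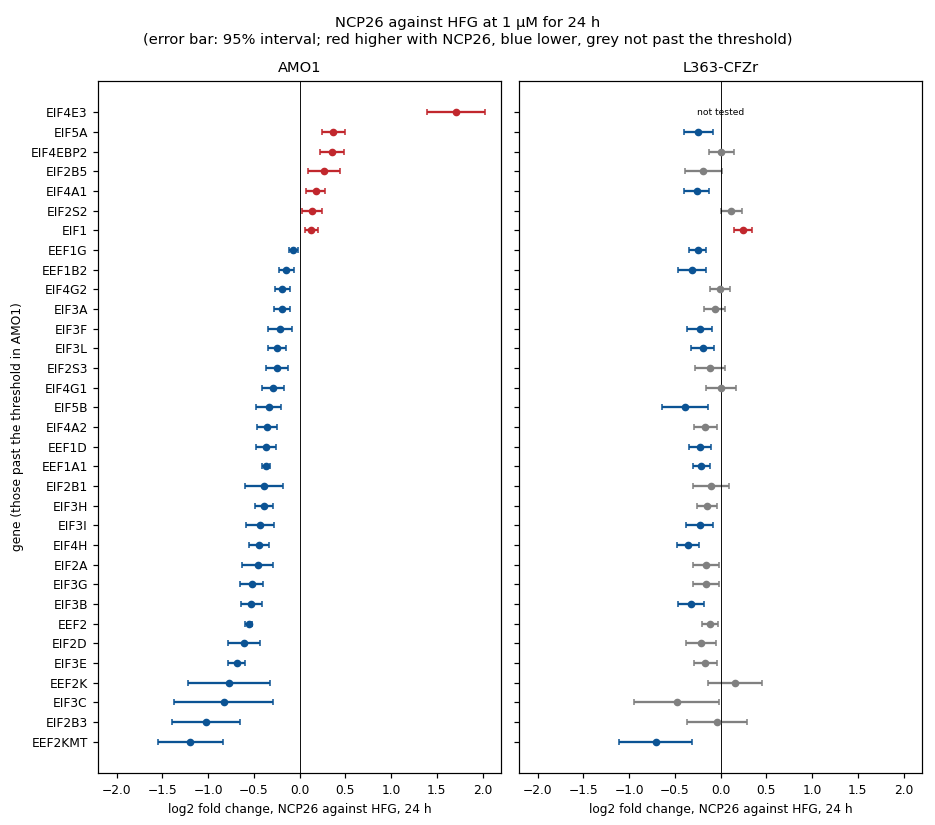
Log2 fold change of NCP26 against HFG at 24 h (x axis) with 95% intervals for the 33 members called in AMO1 cells (y axis), in both lines. In AMO1, 26 members lie left of 0, and EIF5A and EIF4A1 lie right of 0 in AMO1 and left of 0 in L363-CFZr.

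The lines differed before treatment. With DMSO at 6 h 28 of 56 tested members were called, 13 higher and 15 lower in L363-CFZr, beside 60.2% of all genes (28.9% higher and 31.3% lower), and at 24 h 13 of 57, 4 higher and 9 lower, beside 39.9% (19.4% higher and 20.5% lower). EIF4E3 is among the called members at both times and EEF1A2 at 24 h. Each passed the filter through the line where it is high, so these calls carry no weight as tests. All AMO1 libraries with DMSO lie in another set of sample numbers than those of L363-CFZr, so line and set cannot be told apart. EIF5A was at 786, 811 and 720.1 CPM in AMO1 and 315, 313 and 356 in L363-CFZr (-1.25, SE 0.070). EIF4A1 was at 1029, 1044 and 958 CPM in AMO1 and 479, 471 and 488 in L363-CFZr (-1.10, SE 0.061). Neither gene overlapped between the lines, and AMO1 held the higher level of both. EIF4E3 was almost absent from L363-CFZr: with DMSO it was at 0.657, 0 and 7.08 CPM at 6 h and 0.247, 0 and 0.244 CPM at 24 h, against 23.1, 25.9 and 31.5 and 31.5, 28.1 and 25 in AMO1. The 3 libraries at 24 h held 1, 0 and 1 counts, so no fold is given, and at 6 h replicate 3 held 33 of the group's 35 counts. EEF1A2, the tissue-restricted copy of eEF1A, passed the member rule and the filter here through L363-CFZr, so no p-value is given. At 24 h it was at 13.8, 11.9 and 20 CPM in L363-CFZr and 2.93, 2.36 and 2.8 in AMO1 (log2 difference 2.51). At 6 h it was at 2.96, 2.04 and 4.51 CPM in L363-CFZr and 0.33, 1.4 and 0 in AMO1, a few counts per library. Leaving out DMSO replicate 2 of L363-CFZr raised the count at 24 h to 33, beside 65% of all genes, with EEF1A2 at 2.64.

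The effects of HFG and NCP26 were compared between lines in fits of 12 libraries. At 24 h in AMO1, and with HFG at 6 h in L363-CFZr, treated libraries lay in another set of sample numbers than DMSO. Treatment and set cannot be told apart there. For NCP26 at 6 h, 1 of 57 members differed, beside 2.71% of all genes, and for HFG at 6 h 24 of 56, beside 20.7%. At 24 h 11 differed for NCP26, beside 5.41%, and 17 for HFG, beside 16.9%. In most of the last 3 lists the effect in L363-CFZr was the higher, in 20 of 24, 10 of 11 and 14 of 17 called members. Of all genes called in the same comparisons, 1252 of 2285, 334 of 608 and 899 of 1883 were higher. The 24 members include EIF4E3, which passed the filter through AMO1, and the 17 include EEF1A2, which passed it through L363-CFZr. Both are among those with the lower effect in L363-CFZr, and their calls carry no weight as tests. HFG lowered EIF5A more in AMO1 at 6 h (difference 0.67, adjusted p = 1.3e-05) and EIF4B more in AMO1 at 24 h (1.09, adjusted p = 1.1e-04). EIF4B in L363-CFZr was at 1138, 1027 and 1175 CPM with DMSO and 1267, 1252 and 1267 with HFG, where the HFG libraries were the higher but the change did not pass the test (0.18, adjusted p = 0.461). Without DMSO replicate 2 of L363-CFZr it was called higher (0.13, adjusted p = 0.0242), and the difference between lines was 1.05. EIF5A2 rose in AMO1 at 24 h, whereas in L363-CFZr it was at 21.2, 19.4 and 16.6 CPM with DMSO, 13.3, 13.2 and 15.6 with NCP26 and 14.5, 15.5 and 14.2 with HFG. The treated libraries there were the lower ones, without passing the test (-0.43, adjusted p = 0.194, and -0.37, adjusted p = 0.314), and the differences of effects were -1.49 (adjusted p = 0.00166) for NCP26 and -1.24 (adjusted p = 0.00131) for HFG. Without that DMSO replicate EIF5A2 was still not called in L363-CFZr (-0.43, adjusted p = 0.0911, and -0.36, adjusted p = 0.182), the differences were -1.49 and -1.22, and 22 members differed between lines for NCP26 and 30 for HFG, beside 21.1% and 33.4% of all genes.

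EIF3C and EIF3CL need separate mention. They are near-identical copies, with 98.4% of the 31-mers of EIF3CL and 45.1% of those of EIF3C shared with other genes in the table, and reads could be split between them in either way. EIF3C varied by 9.33% to 82.1% (coefficient of variation of 3 replicates) over the 22 groups, EIF3CL by 2.36% to 24.4%, and their sum by 0.983% to 8.54%. In AMO1 cells with CFZ at 6 h EIF3C was at 188, 86.6 and 146 CPM and EIF3CL at 688, 755 and 722 CPM, against 198, 227 and 239 and 524, 503 and 426 with DMSO. The former was called lower (-0.67) and the latter higher (0.57), while the sum, chosen after these values were seen, was higher by 0.28 (SE 0.057, adjusted p = 6.6e-04). With HFG at 24 h EIF3C was at 238, 253 and 187 CPM and overlapped with DMSO at 98.9, 56.6 and 196 CPM, and the sum was higher by 0.48 (SE 0.049). The fold changes of EIF3C alone are therefore uncertain, and its difference between HFG and halofuginol at 24 h (1.7, SE 0.33), where halofuginol libraries were at 142, 22.4 and 59.6 CPM, is given for completeness.

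Other genes of translation were listed for comparison. In AMO1 cells with HFG at 24 h, 6 of 10 poly(A)-binding proteins and cap regulators were higher and 1 lower, and 4 of 5 tested termination and recycling genes were higher and 1 lower. Of 8 enzymes that make hypusine on eIF5A or diphthamide on eEF2, 3 were higher and 2 lower. Of all genes, 28.5% were called higher and 30.5% lower in this comparison. DHPS, the first enzyme of hypusine synthesis, fell with NCP26 at 24 h (-0.97, SE 0.085), as did PABPC4 (-0.97, SE 0.049), a poly(A)-binding protein. DPH2, an enzyme of diphthamide synthesis, fell at 6 h with NCP26 (-0.96, adjusted p = 3.4e-04) and HFG (-1.06, adjusted p = 6.1e-06). PDCD4, which binds eIF4A and blocks it, rose in L363-CFZr cells at 6 h with NCP26 (0.96, adjusted p = 3.2e-04) and HFG (1.26, adjusted p = 2.6e-12). Of the 6 mitochondrial translation factors, 3 were lower and none higher with each of NCP26 and HFG in AMO1 cells at 6 h. Of all genes, 19.2% and 26.6% were called lower there.

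Many mRNAs of the translation machinery begin with a C followed by a run of C and T, the terminal oligopyrimidine (TOP) start through which mTOR controls their translation. Windows from 250 bases before to 50 bases after the annotated start were available from RefSeq (GRCh38.p14) for 46 of the 57 members. A C with at least 4 further C or T bases, starting within 5 bases of the annotated start, was present in 19 of 46 members (41.3%, a window each) and in 22.0% of 22199 windows of protein-coding genes. The starts shown here are of the 4 factors highest per kilobase and of members named above, with and without a run, from 10 bases before the start to 20 after it, 5′ to 3′ on the gene's strand, with the run in capitals.
EEF1A1, chr6:73521013-73521042, minus strand: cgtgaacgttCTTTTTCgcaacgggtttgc
EEF2, chr19:3985444-3985473, minus strand: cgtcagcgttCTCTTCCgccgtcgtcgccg
EIF4B, chr12:53006446-53006475, plus strand: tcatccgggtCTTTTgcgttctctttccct
EIF4A2, chr3:186783567-186783596, plus strand: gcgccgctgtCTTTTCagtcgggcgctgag
EIF2A, chr3:150546777-150546806, plus strand: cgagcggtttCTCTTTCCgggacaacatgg
EIF2S3, chrX:24054946-24054975, plus strand: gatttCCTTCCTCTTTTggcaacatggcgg
EIF3F, chr11:7987327-7987356, plus strand: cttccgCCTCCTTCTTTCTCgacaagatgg
EIF1, chr17:41688875-41688904, plus strand: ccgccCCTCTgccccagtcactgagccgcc
EIF3J, chr15:44537137-44537166, plus strand: ccgccgtgctaaCTCCTCgctagctctccc
EEF1G, chr11:62573872-62573901, minus strand: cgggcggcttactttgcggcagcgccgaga
EEF1B2, chr2:206159599-206159628, plus strand: aagtggccccagcctcgaggccgggcgtct
EIF3B, chr7:2354817-2354846, plus strand: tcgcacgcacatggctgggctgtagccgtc
EIF4G1, chr3:184314596-184314625, plus strand: gcggggagccggaaatggttgtggactacg
EIF5A, chr17:7306989-7307018, plus strand: tgggaacccgaccacactagcgcgctagaa

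The first 7 of these genes fell with NCP26 at 24 h in AMO1 cells, EIF1 and EIF3J carried a run and rose, and EEF1G, EIF3B, EIF4G1 and EIF5A fell without a run at the annotated start. The run of EIF1 ends before the annotated start, as do those of EIF3C, EIF5A2 and EEF2K, which also count among the 19. EEF1B2, also without a run, was called lower with NCP26 at 24 h (-0.36) but not at 6 h (-0.19, adjusted p = 0.248). In AMO1 cells with NCP26 at 6 h the 19 members with a run changed by -0.31 in the median (3 higher, 10 lower) and the 27 without one by -0.18 (2 higher, 7 lower). Of all tested genes, 18.1% were called higher and 19.2% lower there. With HFG at 6 h the medians were -0.32 and -0.23, and with CFZ at 6 h 0.23 and 0.05. At 24 h in AMO1 cells they were -0.41 and -0.18 with NCP26 and -0.06 and 0.02 with HFG. With CFZ at 24 h they were -0.15 and 0.04, in the reverse order of 6 h. In L363-CFZr cells at 6 h the order with NCP26 and HFG was the reverse of that in AMO1. Members with a run had a median of 0.04 and those without one -0.06 with NCP26, and -0.08 and -0.26 with HFG. These are descriptions, since the annotated start may not be the one used in these cells. No medians are given for all genes with or without a run, so the differences are not shown to be particular to the members. The E-box CACGTG, a site that MYC and related factors can bind, is its own reverse complement and was found in 12 of 46 member windows (26.1%) and in 8.34% of all. Of its holders, EIF4G1, EIF4H, EIF4B and EIF3F fell with NCP26 and HFG in AMO1 cells at both times, while EIF1B and EIF5A2 rose in the same 4 comparisons. The motif of EIF4G1, EIF4H, EIF4B, EIF1B and EIF5A2 is in capitals in the following lines, with a line for each site.
EIF4G1, chr3:184314451-184314478, plus strand: gctgtggctgtCACGTGacggggcgggg
EIF4G1, chr3:184314528-184314555, plus strand: cctgcgccggtCACGTGggggcgccggc
EIF4H, chr7:74174146-74174173, plus strand: cgccgccgcacCACGTGggctgcagagc
EIF4B, chr12:53006423-53006450, plus strand: cccgctataatCACGTGattgcctcatc
EIF1B, chr3:40309642-40309669, plus strand: cgcgggacggtCACGTGggaggggccgc
EIF5A2, chr3:170908808-170908835, minus strand: ctaatccgcagCACGTGgggttgccagg
EIF5A2, chr3:170908783-170908810, minus strand: agggcgctcttCACGTGactgggcggag

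The motif starts at -144 and -67 in EIF4G1, -199 in EIF4H, -22 in EIF4B, -54 in EIF1B and -187 and -162 in EIF5A2 relative to the annotated start. The 12 members with an E-box changed by -0.30 in the median with NCP26 at 6 h in AMO1 cells (2 higher, 5 lower) and the 34 without one by -0.16 (3 higher, 12 lower). Of all tested genes, 18.1% were called higher and 19.2% lower in this comparison, and no values are given for all genes with an E-box. TGATGNAA, read on both strands as the core of sites shared by ATF4 and C/EBP factors, was not found in the 46 windows and was in 2.69% of all.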

How the data were processed

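Poly(A) RNA of 66 samples was sequenced from directional libraries, and the authors quantified it with kallisto on a GRCh38 transcriptome per their methods, while their processing notes also name hg19. The deposited table holds whole-number counts for 20167 genes, not normalised; the kallisto version, the annotation and how transcripts became genes were not given in the sources used here. Symbols came from GENCODE 44 (19299 IDs matched).

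For each of 36 comparisons, edgeR 4.0.16 (quasi-likelihood test, TMM, filterByExpr with minimum count 10 and total 15, Benjamini-Hochberg over all tested genes, R 4.3.3) was run on the counts of the groups compared only. The scripts were tested on simulated data. Alternatives were DESeq2 1.42.0, DESeq2's size factors, no filter, a GC offset, a replicate block, the set of sample numbers as a term and leaving out each library. Per-sample values were given for the 3 called members with the largest change in comparisons with DMSO, the 2 in other comparisons, and 17 members listed by role. Members and lists were chosen with earlier results of these data known. Counts of 31-mers shared between transcripts came from GENCODE. Depth was 1666325 to 6596543 counts per library.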

Additional observations from a re-analysis of the deposited data

Results flagged for a closer look

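Effects of a treatment on a member were compared between the lines by the test of the difference itself. This was edgeR's quasi-likelihood test of the line by treatment term, adjusted over all tested genes. It called 1 member for NCP26 and 24 for HFG at 6 h, and 11 and 17 at 24 h, with the shares of all genes given above. The 7 cases below are the called ones with the largest differences, at most 2 for each comparison. Values are the log2 effect in L363-CFZr minus that in AMO1. EIF3B fell less in L363-CFZr with NCP26 at 6 h, with a difference of 0.60 (adjusted p = 0.0328). Without AMO1 DMSO 6 h replicate 1 this call was lost and 0 members were called. The fit also includes AMO1 NCP26 6 h replicate 1, the NCP26 library furthest from DMSO for EIF3B. EEF1AKMT3 differed by 1.25 with HFG at 6 h (adjusted p = 0.00935): in L363-CFZr it was at 11.2, 6.47 and 12.2 CPM with DMSO and 10.5, 11.5 and 13 with HFG. EIF4E3 was given a difference of -3.47 with HFG at 6 h, but in L363-CFZr it held 2, 0 and 33 counts with DMSO and 1, 0 and 1 with HFG, so the value is no measure of an effect in that line. EIF2A differed by 1.18 with NCP26 at 24 h (adjusted p = 0.00896), and in L363-CFZr it was at 152, 91.3 and 143 CPM with DMSO and 142, 142 and 136 with NCP26. Without DMSO replicate 2 the difference was 0.98. EIF5A2 differed by -1.49 with NCP26 and by -1.24 with HFG at 24 h, the values of its libraries being given above. EEF1A2 was given a difference of -1.71 with HFG at 24 h, or -1.85 without DMSO replicate 2 of L363-CFZr. In L363-CFZr it went from 13.8, 11.9 and 20 CPM with DMSO to 12.6, 9.97 and 7.57 with HFG. In AMO1 it went from 2.93, 2.36 and 2.8 CPM to 5.06, 2.89 and 8.61. The AMO1 side rests on few counts, 8, 10 and 14 with DMSO and 9, 7 and 26 with HFG. When HFG and DMSO were compared in AMO1 only, EEF1A2 did not pass the filter and was not tested. It passed the filter of the joint fit through L363-CFZr, so the difference is a description and no p-value is given. At 24 h the treated AMO1 libraries lie in another set of sample numbers than their DMSO libraries. The same holds for HFG at 6 h in L363-CFZr. These differences therefore cannot be told apart from a difference between sets, and line and set cannot be told apart either. With the set as a term, EIF5A2 was called in AMO1 at 24 h for neither compound. The 24 h differences include the DMSO replicate of L363-CFZr that stood apart.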

How the results depend on the processing

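The depth, 1666325 to 6596543 counts, limits EEF1A2, EIF4E3 and EIF5A2, the rarest members, most. Without a filter on low counts 1 member was called with NCP22 at 24 h and 2 with halofuginol at 24 h in AMO1, 1 with NCP22 at 6 h in L363-CFZr, 3 for NCP26 against HFG at 6 h in AMO1 and 1 in L363-CFZr, and the difference of NCP26 effects between lines counted 2 at 6 h and 6 at 24 h. DESeq2 called 4 with halofuginol at 24 h in AMO1, 6 with NCP26 and 3 with HFG at 24 h in L363-CFZr, 1 for NCP26 against HFG at 6 h in AMO1 and 3 for the difference of NCP26 effects at 6 h. Removal of the GC trend left 1 with halofuginol at 24 h in AMO1, 6 with NCP26 and 2 with halofuginol at 6 h in L363-CFZr and 3 for the difference of NCP26 effects at 6 h, and it turned EEF2 with HFG at 6 h in L363-CFZr to 0.047. The set of sample numbers as a term gave 22 with NCP26 and 21 with HFG at 24 h in AMO1, 10 with HFG and 0 with halofuginol at 6 h in L363-CFZr, and turned EEF1A1 with HFG at 24 h in AMO1 to 0.19. In each line that term rests on a single group whose libraries lie in both sets. Summing EIF3C and EIF3CL, an alternative chosen after seeing the data, turned EIF3C with CFZ at 6 h to 0.28. The cause of these changes was not tested. DESeq2's size factors moved no count by over 1.5 times. The share of all genes called can move with the setting too, and it is given above for some settings only. The counts in this section are therefore not shown to be particular to the members.

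Replicate numbers did not pair the samples: in 0 of 32 comparisons were all 3 correlations of same-numbered libraries above 0.1 (range -0.38 to 0.355). With a replicate block the counts were 11 with NCP22 at 6 h in AMO1, 5 with NCP26 at 6 h and 0 with NCP26 at 24 h in L363-CFZr, and 1 and 6 for the differences of NCP26 and HFG effects at 24 h, and the other counts stayed within 1.5 times.

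Leaving out 1 library at a time gave, against DMSO in AMO1, 16 to 30 with NCP26, 4 to 15 with NCP22 and 0 to 12 with halofuginol at 6 h, and 3 to 32 with CFZ, 0 to 4 with NCP22 and 0 to 1 with halofuginol at 24 h. In L363-CFZr the counts were 5 to 22 with NCP26 and 11 to 21 with halofuginol at 6 h, and 0 to 18 with NCP26 and 0 to 27 with HFG at 24 h. For NCP26 against NCP22 at 6 h they were 11 to 30 in AMO1 and 6 to 19 in L363-CFZr, for NCP26 against HFG 0 to 1 at 6 h in each line and 5 to 19 at 24 h in L363-CFZr. Between the DMSO groups of the lines at 24 h they were 8 to 33, and for differences of effects 0 to 2 (NCP26) and 16 to 24 (HFG) at 6 h and 4 to 22 (NCP26) and 9 to 30 (HFG) at 24 h. In AMO1 at 6 h the lowest count with NCP26 came without DMSO replicate 2. The highest count with CFZ at 24 h came without CFZ replicate 2, and the highest with NCP26 and HFG at 24 h in L363-CFZr, between the lines at 24 h and for both differences of effects at 24 h came without L363-CFZr DMSO replicate 2.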
